A study of Mus musculus with 8 samples.

Results

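The 28 genes described here encode the enzymes of cholesterol synthesis, the sterol-regulated transcription factor SREBP2 with its partners, and proteins that take up, move and esterify cholesterol. They were listed by gene symbol, with no measured value in the rule, though earlier results of these data were known. Of the 28 genes, 28 were matched among the 43629 genes of the count table. FPKM values, which are scaled for gene length as well as library size, were used for 27 of them, all but Mvd. The libraries were made from polyadenylated RNA of mice labelled as APC mutant, on a C57B6/129 background and without treatment, 4 from tumor and 4 from small intestines. All 8 libraries thus share the mutation of Apc, a suppressor of intestinal tumors, and no library of a mouse without it enters the comparison. The allele, the age of the mice, the stretch of gut, the layers of the gut wall taken and the number of animals are not given in the labels. The labels tie no library to an animal, so each p-value reflects how far these particular libraries differ, which may be a technical spread.

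Cells make cholesterol from acetyl-CoA through mevalonate, farnesyl diphosphate, squalene and lanosterol. When membranes hold little sterol, SCAP escorts SREBP2 from the endoplasmic reticulum to the Golgi, where it is cleaved, and the released factor switches on most genes of the pathway. When sterol is plentiful, the INSIG proteins retain SCAP in the endoplasmic reticulum. The absorptive enterocyte of the small intestine also takes cholesterol from the gut lumen through NPC1L1 and esterifies it with ACAT2, the product of Soat2, for export in chylomicrons.

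Gene-assigned counts ran from 53856561 to 84433335 per library. The 14 enterocyte markers summed to 66358 to 82597 CPM (counts scaled to library size after trimmed-mean, TMM, correction) in small intestine and to 847 to 1239 CPM in tumor. Pan-epithelial markers gave 13805 to 18593 CPM and 6219 to 8497 CPM in the same order. Fibroblast markers summed to 26.6 to 71.9 CPM in small intestine and 1234 to 1957 CPM in tumor, and endothelial markers to 11.8 to 30.4 and 194 to 256 CPM. In such bulk tissue, fewer cells of a type and less RNA per cell cannot be told apart. The part of these markers' cell types in the differences given here was not tested.

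Genes of luminal cholesterol handling, Npc1l1 and Soat2, were far lower in tumor, while Soat1, the other cholesterol esterification enzyme, was far higher. The synthesis enzymes were mostly modestly lower in tumor with TMM scaling, but this depended on the scaling between the tissues. Of the 28 genes, 17 were lower and 3 higher in tumor by edgeR's quasi-likelihood test, adjusted by Benjamini-Hochberg over all 17029 genes tested (threshold 0.05), and 8 did not pass. Of all genes tested, 74.3% were called, 35.4% lower and 38.9% higher. With library totals in place of TMM, 7 of the 28 were lower and 9 higher, against 17.6% and 62% of all genes, and 10 members changed sign. By FPKM, 7 were lower and 8 higher of 27, against 18.1% and 64.6% of all genes tested with limma on log2(FPKM + 1). The median of all genes was 0.07 with TMM and 0.93 with library totals (log2, tumor minus small intestine). The median of the 28 genes was -0.82 and 0.07, and so lay 0.89 and 0.87 below that of all genes. Under all 3 scalings, 7 genes were called lower (Insig2, Msmo1, Ebp, Sc5d, Npc1l1, Stard4 and Soat2) and 3 higher (Scap, Npc1 and Soat1). Groups did not overlap for 14 genes lower and 3 genes higher in tumor, against 33% and 37.5% of all genes tested.

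**Figure D1:**
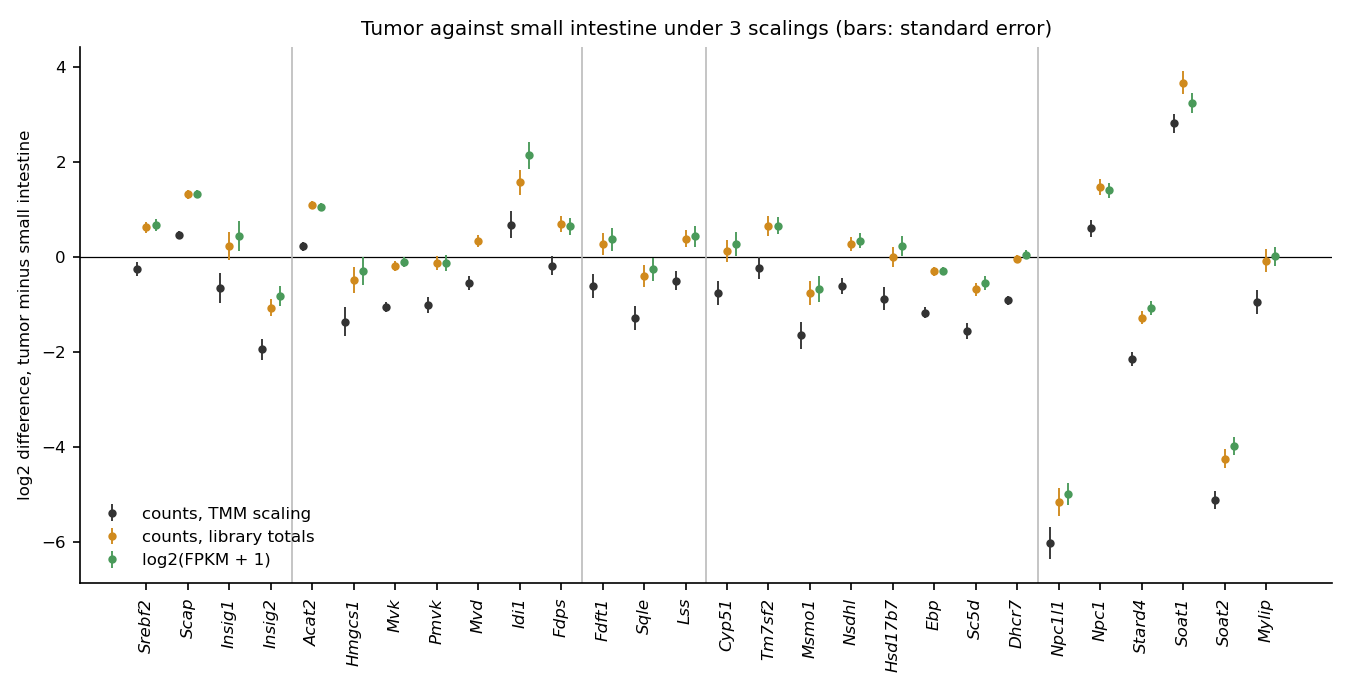
Log2 difference between tumor and small intestine for the 28 cholesterol genes (vertical axis; bars are standard errors), with counts scaled by TMM, counts scaled by library totals, and log2(FPKM + 1), the last without Mvd. Vertical lines separate regulators, the mevalonate arm, squalene and lanosterol steps, lanosterol to cholesterol, and uptake, traffic and esterification. Npc1l1, Soat2 and Soat1 keep their side at each scaling, whereas most enzymes lie below 0 with TMM and near or above 0 with the others.

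Npc1l1 encodes the brush-border protein that brings luminal cholesterol into the enterocyte. Its level was 27.4, 40.0, 36.9 and 15.4 CPM in tumor replicates 1 to 4 and 1785, 2140.0, 1704 and 2160.3 CPM in small intestine replicates 1 to 4. The groups did not overlap, and tumor replicate 4 was the lowest of all. Npc1l1 thus differed by -6.02 ± 0.33 (log2 fold change ± SE), with an edgeR adjusted p of 4.13e-07. By FPKM, which allows genes to be compared with each other, Npc1l1 had the highest level of the 27 genes in small intestine, 265 ± 27.6 FPKM (SD, n = 4), and ranked 25 in tumor at 7.74 ± 2.81 FPKM. Soat2, whose enzyme esterifies absorbed cholesterol, stood at 9.18, 10.6, 8.42 and 10.7 CPM in the tumor libraries and at 288, 364, 425 and 265 CPM in small intestine. Here small intestine replicate 3 was highest and replicate 4 lowest, and the tumor libraries lay close together. The log2 fold change of Soat2 was -5.11 ± 0.19, with an edgeR adjusted p of 5.85e-08. Its FPKM rank fell from 4 in small intestine to 27, the last, in tumor.

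Soat1 encodes ACAT1, the esterification enzyme found in most cell types, macrophages among them. It was at 89.6, 98.0, 85.0 and 113 CPM in tumor replicates 1 to 4, against 16.4, 17.3, 11.7 and 9.24 CPM in small intestine. The lowest tumor library thus stood well above the highest small intestine library. Its log2 fold change of 2.82 ± 0.21 (edgeR adjusted p = 2.14e-06) was the largest rise among the 28 genes. Of 8 macrophage markers 7 rose with TMM, beside 38.9% of all genes tested that were higher. Sums over the 8 markers were 280.1 to 484 CPM in tumor libraries against 107 to 248 CPM in small intestine. The part of macrophages in the level of Soat1 was not tested. Npc1 encodes a lysosomal protein that passes cholesterol on from endocytosed lipoproteins. In tumor it stood at 124, 96.2, 82.0 and 90.4 CPM, and the small intestine libraries had 52.3, 69.8, 52.2 and 83.7 CPM. The groups overlapped, since small intestine replicate 4 exceeded tumor replicate 3, and the log2 fold change was 0.61 ± 0.18 (edgeR adjusted p = 0.0142).

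Ratios of related genes taken within a library do not depend on the scaling between libraries. Read counts of Soat1 were 9.25 to 10.6 times those of Soat2 in the 4 tumor libraries and 0.0276 to 0.0570 times in the 4 small intestine libraries. The mean log2 ratio differed by 7.95, or 247-fold. Npc1 counts were 2.22 to 5.88 times those of Npc1l1 in tumor and 0.0293 to 0.0388 times in small intestine, a log2 difference of 6.72. In both pairs the first gene had more reads than its partner in all 4 tumor libraries and fewer in all 4 of small intestine. For Insig1 over Insig2 the ratio was 2.12 to 3.28 in tumor and 0.604 to 1.40 in small intestine, a log2 difference of 1.37. Acat2 over Acat1, the cytosolic over the mitochondrial thiolase gene, was at 0.578 to 0.721 in tumor and 0.286 to 0.455 in small intestine, a log2 difference of 0.83. Srebf2 over Srebf1, the gene of the related factor that mainly drives fatty acid synthesis, was at 1.51 to 1.90 in tumor and 3.36 to 5.83 in small intestine, a log2 difference of -1.46. The groups were apart in each of the 5 pairs. Each gave an exact 2-sided permutation p of 0.0286, the smallest that 4 against 4 libraries allow, and a Benjamini-Hochberg adjusted p of 0.0286 over the 5 pairs. Without tumor replicate 4, the Insig1 to Insig2 difference was 1.24, with an adjusted exact permutation p of 0.0571.

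**Figure D2:**
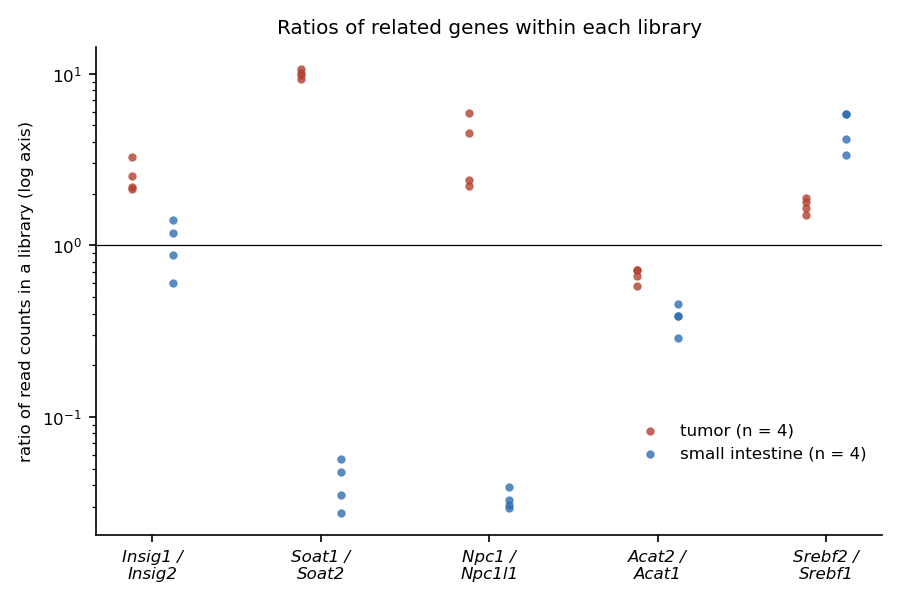
Ratio of read counts of 2 related genes within each library (vertical log axis), for 4 tumor and 4 small intestine libraries; each point is a library and the horizontal line marks equal counts. Soat1 over Soat2 lies at 9.25 to 10.6 in tumor and at 0.0276 to 0.0570 in small intestine, and the groups are apart in each of the 5 pairs.

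Among the regulators, Insig2 was the one with the clearest fall. Its product holds SCAP in the endoplasmic reticulum when sterol is high. Tumor libraries had 29.4, 30.0, 31.8 and 25.3 CPM, and small intestine libraries 75.6, 152, 89.7 and 131 CPM, so that the groups were well apart. Insig2 fell by 1.94 ± 0.21 on the log2 scale (edgeR adjusted p = 2.84e-05). Insig1 has a similar role and is itself a target of SREBP2. Its tumor values were 62.2, 76.1, 69.6 and 83.1 CPM, beside 88.8, 133, 54.2 and 184 CPM for small intestine. The small intestine libraries spanned 3.40-fold and enclosed the tumor values. The log2 fold change of -0.66 ± 0.32 did not pass (edgeR adjusted p = 0.085), but it did without small intestine replicate 3 (-0.90, edgeR adjusted p = 0.00725). Srebf2, the gene of the transcription factor, had 347, 362, 352 and 345 CPM in the tumor libraries, beside 364, 477, 324 and 504 CPM for small intestine. The tumor libraries differed among themselves by a factor of 1.05 only. Srebf2 had a log2 fold change of -0.25 ± 0.15 (edgeR adjusted p = 0.157), -0.36 without small intestine replicate 3 (edgeR adjusted p = 0.0343) and 0.63 with library totals (edgeR adjusted p = 0.000946). Scap, the escort of SREBP2, was at 76.0, 76.6, 71.5 and 80.3 CPM in tumor against 54.8, 52.2, 60.5 and 53.5 CPM in small intestine, with no overlap. It rose by 0.46 ± 0.08 on the log2 scale (edgeR adjusted p = 0.000592).

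Of the 18 synthesis enzymes, 12 were lower, 0 higher and 6 did not pass with TMM (edgeR), whereas with library totals 3 were lower, 5 higher and 10 did not pass. Of all genes tested, 35.4% were lower and 38.9% higher with TMM, and 17.6% and 62% with library totals, so that 3 of 18 lower by totals is near the share of all genes. At an unadjusted edgeR p under 0.05, 2 enzymes were higher with TMM, and DESeq2's Wald test called 1 higher. By FPKM, 3 enzymes were lower and 4 higher of 17, against 18.1% and 64.6% of all genes tested. Their median log2 fold change was -0.82 with TMM and 0.07 with library totals, beside 0.07 and 0.93 for all genes. The groups did not overlap for 10 enzymes lower in tumor and for Idi1, which was higher, against 33% and 37.5% of all genes tested.

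**Figure D3:**
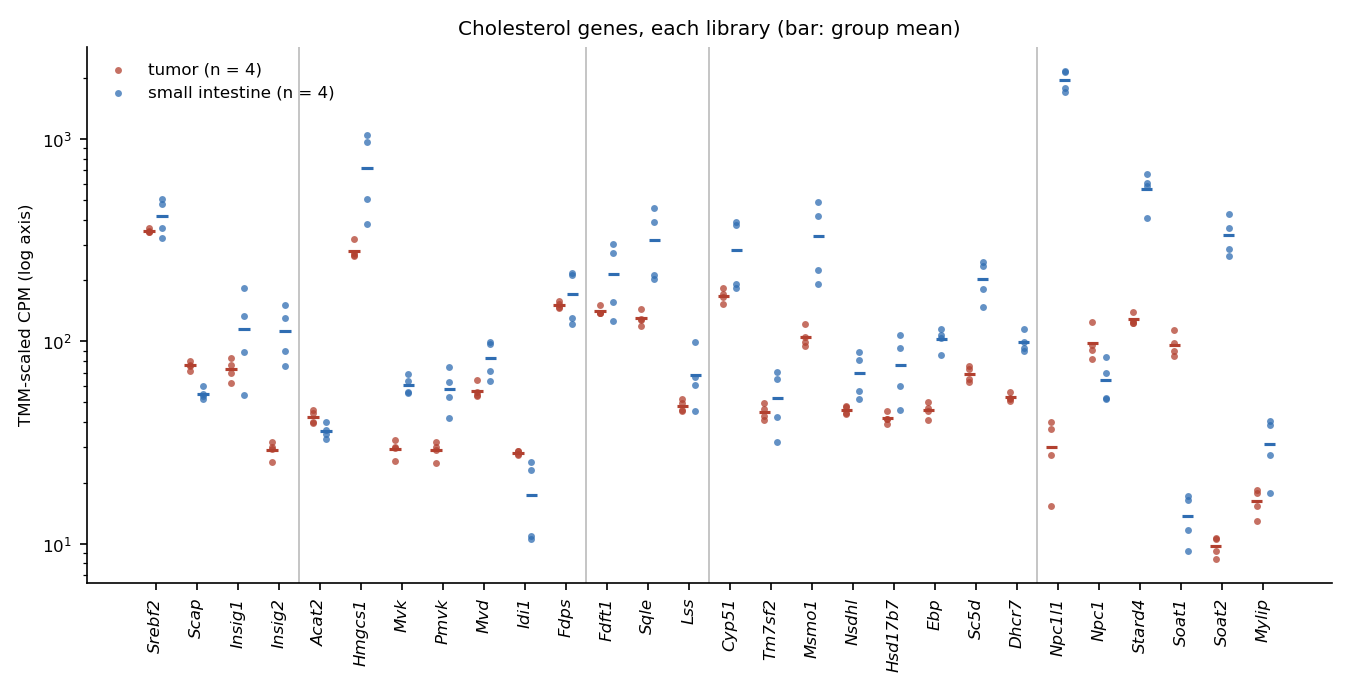
TMM-scaled CPM of the 28 cholesterol genes in each library (vertical log axis), with tumor on the left and small intestine on the right of each gene; points are libraries and short bars are group means (n = 4 each). For most synthesis enzymes the small intestine points spread more widely than the tumor points, and Npc1l1, Soat1 and Soat2 show the widest gaps between the tissues.

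The mevalonate arm runs from acetoacetyl-CoA to farnesyl diphosphate. Hmgcs1, the cytosolic synthase that forms HMG-CoA, had 272, 268, 319 and 265 CPM in tumor replicates 1 to 4, and 505, 965, 379 and 1043 CPM in the small intestine libraries. Small intestine replicates 2 and 4 were the high ones, and the lowest small intestine library was still above the highest tumor library. Hmgcs1 fell by 1.36 ± 0.30 on the log2 scale (edgeR adjusted p = 0.00268), and stood at -0.47 with library totals (edgeR adjusted p = 0.134). Mvk and Pmvk, the kinases that phosphorylate mevalonate and its phosphate, fell by 1.05 and 1.00 on the log2 scale, with edgeR adjusted p of 1.83e-05 and 0.00049. With library totals they stood at -0.18 and -0.13 and were not called. Mvd, the decarboxylase that yields isopentenyl diphosphate, was called lower with TMM, at -0.54, and higher with library totals, at 0.33 (edgeR adjusted p = 0.00918 and 0.0363).

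Idi1, which encodes the isomerase that makes dimethylallyl diphosphate, had higher levels in tumor. Its tumor libraries had 28.6, 27.5, 28.9 and 27.6 CPM, while those of small intestine had 10.9, 23.1, 10.6 and 25.4 CPM. The tumor values were nearly equal and above all of the small intestine values. A log2 fold change of 0.69 ± 0.28 had an edgeR adjusted p of 0.051, and DESeq2's Wald test gave 0.66 with an adjusted p of 0.0452. Idi1 was called higher without small intestine replicate 2 or 4 (0.84 and 0.92, edgeR adjusted p = 0.0314 and 0.0139). The FPKM table gave 30.5 ± 2.39 FPKM in tumor and 6.63 ± 3.21 FPKM in small intestine for Idi1. With counts scaled by library totals, not TMM, the CPM of Idi1 divided by its FPKM was 1.60 times as high in small intestine as in tumor, so its fold change differs between the count and FPKM values. Acat2, the thiolase gene of the first step, averaged 42.3 ± 3.24 CPM in tumor libraries against 36.1 ± 3.07 CPM (SD, n = 4). Its log2 fold change of 0.23 had an edgeR adjusted p of 0.0511, and passed without tumor replicate 1, tumor replicate 3 or small intestine replicate 4 (edgeR adjusted p = 0.0321, 0.0255 and 0.0267). Fdps, the farnesyl diphosphate synthase gene, was at 152 ± 5.64 against 171 ± 51.7 CPM and did not pass (edgeR adjusted p = 0.429). By FPKM, Fdps was the first of the 27 genes in tumor at 129 ± 2.62, with Hmgcs1 next at 116 ± 8.69.

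The steps from farnesyl diphosphate to lanosterol commit the pathway to sterols. Sqle encodes squalene epoxidase, a rate-limiting enzyme of the later pathway. The tumor libraries had 127, 129.7, 144 and 119 CPM of it, and the small intestine libraries 212, 459, 203 and 391 CPM. No small intestine library came as low as the highest tumor library, and replicates 2 and 4 were again high. Sqle fell by 1.28 ± 0.26 on the log2 scale (edgeR adjusted p = 0.00157), and stood at -0.40 with library totals (edgeR adjusted p = 0.141). Fdft1, squalene synthase, and Lss, lanosterol synthase, had log2 fold changes of -0.61 and -0.50 and missed the threshold (edgeR adjusted p = 0.0549 and 0.0526). Fdft1 passed without small intestine replicate 1 or 3 (-0.74 and -0.80, edgeR adjusted p = 0.0326 and 0.00784), and Lss without replicate 3 (-0.65, edgeR adjusted p = 0.00812). Exons of Fdft1 share 774 bases with those of Ctsb on the opposite strand. As the strand setting is not given in the sources used here, reads of the 2 genes there cannot be told apart. On the same strand, exons of Fdps share 1124 bases with Gm43738, which has no row of counts. Those of Tm7sf2 share 532 bases with Vps51. Reads in such same-strand stretches cannot be told apart by strand. Scap, Hmgcs1, Idi1, Lss, Cyp51 and Npc1 also overlap other genes, on the opposite strand.

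From lanosterol to cholesterol, 7 of 8 enzymes were lower with TMM, against 35.4% of all genes. With library totals 3 were lower and 1 higher, against 17.6% and 62%. Msmo1, the sterol C4-methyl oxidase gene, had 99.5, 105, 121 and 95.1 CPM in the tumor libraries and 225, 417, 193 and 486 CPM in those of small intestine. The groups were apart, with small intestine replicates 2 and 4 far above replicates 1 and 3. Msmo1 fell by 1.65 ± 0.29 on the log2 scale (edgeR adjusted p = 0.000571), and by 0.76 with library totals (edgeR adjusted p = 0.0188). Sc5d, lathosterol oxidase, had 62.8, 73.3, 75.5 and 65.4 CPM in tumor libraries against 182, 236, 149 and 248 CPM. Ebp, the sterol isomerase gene, was at 46.6, 45.3, 50.3 and 41.1 CPM against 85.7, 108, 104 and 115 CPM. Both showed clear gaps between the tissues, with log2 fold changes of -1.56 ± 0.17 for Sc5d and -1.17 ± 0.11 for Ebp (edgeR adjusted p = 2.28e-05 and 1.05e-05). Dhcr7, whose enzyme makes cholesterol from 7-dehydrocholesterol, fell by 0.91 with TMM and stood at -0.035 with library totals (edgeR adjusted p = 2.28e-05 and 0.698). The demethylating enzymes Nsdhl and Hsd17b7 fell by 0.60 and 0.88 with TMM and were not called with library totals, where they stood at 0.28 and 0.00799. Cyp51, lanosterol demethylase, had a log2 fold change of -0.76 (edgeR adjusted p = 0.0222), and the call was lost without tumor replicate 1 or 4 or small intestine replicate 2 or 4 (edgeR adjusted p = 0.0502 to 0.0623). Tm7sf2, a sterol reductase gene, was at 44.9 ± 3.98 against 52.4 ± 18.4 CPM and did not pass with TMM (edgeR adjusted p = 0.396).

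A pattern among the small intestine libraries ran through the whole synthesis pathway. In 18 of 18 enzymes, replicates 2 and 4 were both above replicates 1 and 3, an order seen in 19.1% of all genes tested. The labels do not define this order, which was read from these same values. The shares given here therefore describe the order and do not test it. Replicate 4 was the highest in 14 enzymes and replicate 2 in 4, while replicate 3 was the lowest in 13 and replicate 1 in 5. With library totals the order held for 16 of 18, all but Ebp and Dhcr7, against 10.3% of all genes, and in FPKM for 15 of 17. The ratio of the highest to the lowest small intestine library was 1.22 to 2.75 over the enzymes, with a median of 1.96, beside 1.63 for all genes. Hmgcs1 spanned most, followed by Msmo1 at 2.53 and Idi1 at 2.40. In tumor the same ratio was 1.05 to 1.28, with a median of 1.20, beside 1.31 for all genes. The spread was wider in small intestine for 17 of 18 enzymes, all but Mvk, and for 76.8% of all genes. Of the 10 other members, Srebf2, Insig1, Insig2, Npc1l1, Npc1 and Stard4 showed the order and Scap, Soat1, Soat2 and Mylip did not. Replicates 2 and 4 also had the lowest TMM factors, 0.728 and 0.687 against 0.788 and 0.764. Enterocyte markers summed to 66358, 70994, 70326 and 82597 CPM in replicates 1 to 4, and pan-epithelial markers to 13805, 18340, 17100 and 18593 CPM, both in the same order. Fibroblast markers summed to 71.9, 57.0, 26.6 and 35.7 CPM and cell cycle genes to 329, 424, 503 and 304 CPM. The part of these measures in the pattern was not tested, and the labels give no feature that sets replicates 2 and 4 apart.

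**Figure D4:**
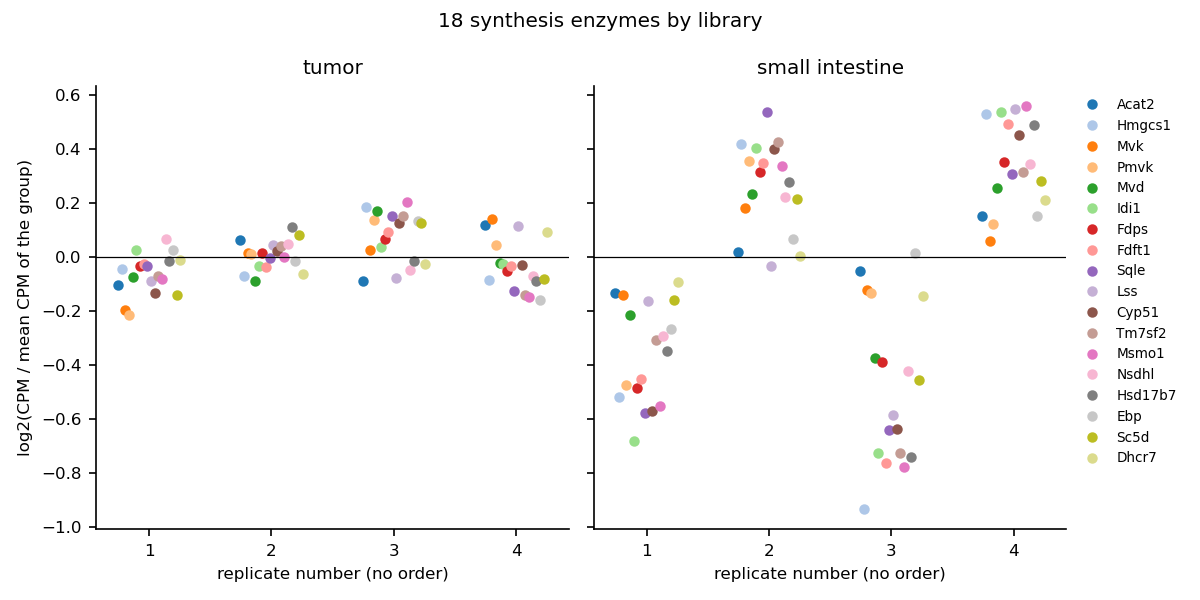
CPM of the 18 synthesis enzymes in each library relative to the mean of its group (vertical axis, log2), with tumor in the left panel and small intestine in the right; the horizontal axis is the replicate number, which has no order, and each color is a gene. Small intestine replicates 2 and 4 lie above replicates 1 and 3 for each enzyme, with highest to lowest ratios of 1.22 to 2.75, while the tumor libraries span ratios of 1.05 to 1.28.

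The sequence just before the start sites of the members was examined for known elements, whether or not a gene showed this order. Any link between such elements and the order was not tested. RefSeq promoter windows of build GRCm38.p6, from 250 bases before to 50 after a start, were matched by symbol for 22 of the 28 genes. SREBP binds sterol regulatory elements and usually needs NF-Y at a CCAAT box or Sp1 at a GC box nearby. The box CCAAT, on either strand, was in a window of 20 of 22 members, and of 41.1% of 27025 genes with windows. The GC box GGGCGG was in 20 of 22, against 38.2%. By window, CCAAT was in 71.4% of the 28 member windows and GGGCGG in 82.1%, against 37.4% and 35.7% of all windows. The background takes in genes that were not tested here, whereas all members were tested, so it is not a like set. A loose form of the sterol element, TCACNCCAC on either strand, was in 1 member, Hmgcs1, and in 1.44% of all genes. A match is a description of letters, not a bound site. The stretches below end at the RefSeq start or at any earlier annotated start, and capitals mark CCAAT on either strand and the sterol element match. They show 3 synthesis enzymes, the INSIG pair whose ratio differed between tissues, and an uptake and an esterification gene, Npc1l1 and Soat1. No window was matched for Soat2, whose gap was wider than that of Soat1.
Hmgcs1 promoter, chr13:119690101-119690350, plus strand: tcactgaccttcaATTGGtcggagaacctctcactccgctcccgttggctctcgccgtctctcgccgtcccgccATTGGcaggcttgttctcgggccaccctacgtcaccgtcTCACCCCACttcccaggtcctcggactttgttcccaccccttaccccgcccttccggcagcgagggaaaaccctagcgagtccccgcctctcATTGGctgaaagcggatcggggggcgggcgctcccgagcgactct
Mvk promoter, chr5:114444019-114444268, plus strand: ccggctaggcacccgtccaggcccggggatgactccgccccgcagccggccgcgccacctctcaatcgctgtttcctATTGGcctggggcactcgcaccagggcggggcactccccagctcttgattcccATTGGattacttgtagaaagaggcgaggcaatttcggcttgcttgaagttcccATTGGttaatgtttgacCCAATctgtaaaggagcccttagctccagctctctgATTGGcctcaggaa
Ebp promoter, chrX:8193513-8193762, minus strand: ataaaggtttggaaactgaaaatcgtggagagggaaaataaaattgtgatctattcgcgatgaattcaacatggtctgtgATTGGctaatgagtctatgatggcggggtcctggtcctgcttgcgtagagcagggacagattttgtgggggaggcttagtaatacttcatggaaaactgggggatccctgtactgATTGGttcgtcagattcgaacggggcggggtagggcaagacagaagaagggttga
Insig1 promoter, chr5:28071162-28071362, plus strand: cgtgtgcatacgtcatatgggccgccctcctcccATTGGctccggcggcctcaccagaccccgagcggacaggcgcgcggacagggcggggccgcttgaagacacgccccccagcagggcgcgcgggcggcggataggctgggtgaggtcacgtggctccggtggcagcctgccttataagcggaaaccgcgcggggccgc
Insig2 promoter, chr1:121332590-121332839, minus strand: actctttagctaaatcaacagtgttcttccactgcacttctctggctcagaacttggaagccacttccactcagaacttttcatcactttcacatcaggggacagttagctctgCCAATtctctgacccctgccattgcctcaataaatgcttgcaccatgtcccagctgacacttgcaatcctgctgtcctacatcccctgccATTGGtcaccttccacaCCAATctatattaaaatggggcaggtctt
Npc1l1 promoter, chr11:6230246-6230495, minus strand: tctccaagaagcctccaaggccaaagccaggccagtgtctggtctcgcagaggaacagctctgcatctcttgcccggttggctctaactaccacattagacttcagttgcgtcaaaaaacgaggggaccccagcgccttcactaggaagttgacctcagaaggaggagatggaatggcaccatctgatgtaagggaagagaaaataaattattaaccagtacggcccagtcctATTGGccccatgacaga
Soat1 promoter, chr1:156474332-156474578, minus strand: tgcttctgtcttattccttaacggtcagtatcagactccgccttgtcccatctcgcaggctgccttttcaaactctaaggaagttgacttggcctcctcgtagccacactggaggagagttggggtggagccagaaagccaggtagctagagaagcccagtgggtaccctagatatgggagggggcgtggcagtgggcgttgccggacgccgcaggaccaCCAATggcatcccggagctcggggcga

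Hmgcs1 holds 3 CCAAT boxes in this stretch and a match to the sterol element 137 bases before the start. Mvk holds 5 CCAAT boxes, Ebp 2 and Insig2 3. The stretches of Insig1, Npc1l1 and Soat1 hold 1 box each.

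The remaining genes of traffic and uptake, Stard4 and Mylip, were lower in tumor with TMM. Stard4, which carries sterol between membranes and is an SREBP2 target, had 123, 124, 126 and 140.5 CPM in tumor libraries and 588, 606, 409 and 671 CPM in those of small intestine. The groups were wide apart, with small intestine replicate 3 the nearest to tumor. Its log2 fold change was -2.15 ± 0.16 (edgeR adjusted p = 2.07e-06), and -1.27 with library totals. Mylip encodes IDOL, a ubiquitin ligase induced by LXR that degrades lipoprotein receptors. The tumor libraries had 12.9, 15.4, 17.8 and 18.5 CPM and the small intestine libraries 38.7, 27.6, 17.9 and 40.2 CPM, where replicate 3 fell within the tumor range. Mylip fell by 0.94 ± 0.25 on the log2 scale (edgeR adjusted p = 0.00624), and stood at -0.072 with library totals (edgeR adjusted p = 0.793).

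**Figure D5:**
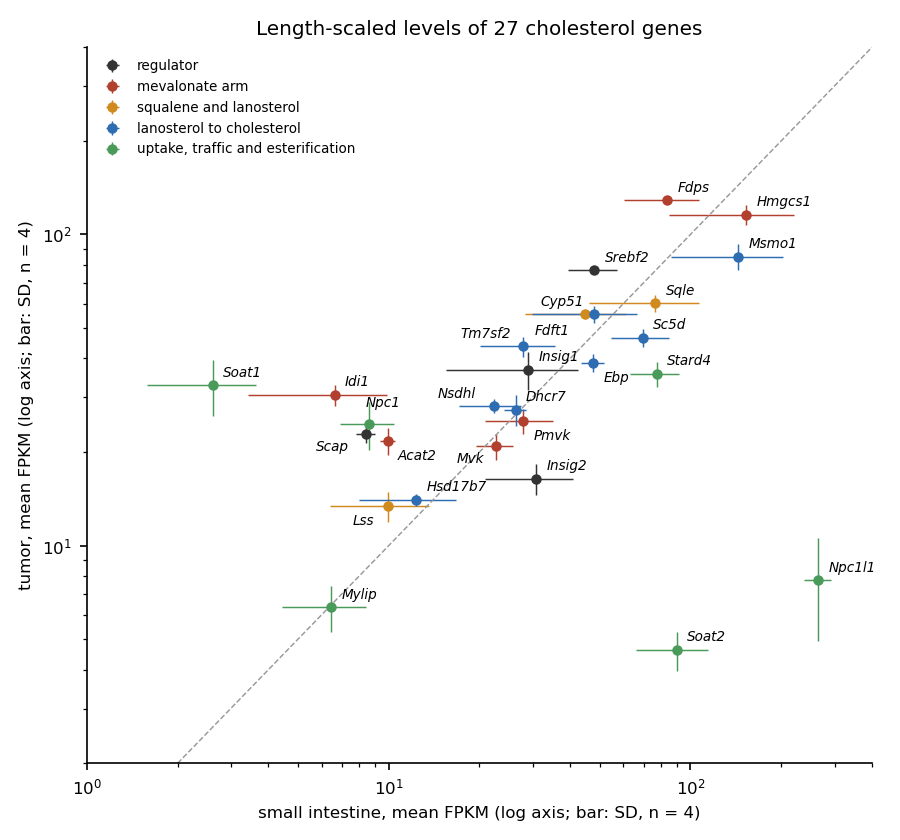
Mean FPKM in small intestine (horizontal log axis) against mean FPKM in tumor (vertical log axis) for the 27 cholesterol genes with FPKM values; bars are SD (n = 4 libraries each), colors are roles and the dashed line marks equal values. Fdps and Hmgcs1 lead in tumor at 129 and 116 FPKM, and Npc1l1 leads in small intestine at 265 FPKM and lies at 7.74 FPKM in tumor.

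Genes around the pathway were followed as lists, beside shares over all genes of 38.9% higher and 35.4% lower with TMM and of 62% and 17.6% with library totals. Of 12 matched SREBP processing and sterol sensing genes, 4 rose and 8 fell with TMM (median -0.43, beside 0.07 for all genes), and 7 rose and 4 fell with library totals. Srebf1 rose by 1.24, the site-2 protease gene Mbtps2, which cleaves SREBPs, by 1.28, and Rnf145, a ubiquitin ligase gene, by 0.78. Erlin1, which takes part in sterol-dependent degradation in the endoplasmic reticulum, fell by 2.92, and the COPII coat genes Sec23a and Sec24d fell by 2.70 and 1.74. Of 10 oxidoreductase partners of the sterol enzymes, 2 rose and 6 fell with TMM, and 4 rose and 4 fell with library totals. Pgrmc1, a heme protein gene, and the cytochrome b5 genes Cyb5a and Cyb5b fell by 2.71, 2.26 and 1.73, while Cyb5r1 rose by 1.23.

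Of 9 genes of LXR, the sterol-activated receptor, and of sterol efflux, 3 rose and 6 fell under either scaling. Abcg5 and Abcg8, whose proteins together pump sterol back into the gut lumen, fell the most. Abcg5 averaged 5.91 ± 1.02 CPM in tumor libraries against 404 ± 30.8 CPM, and Abcg8 6.31 ± 1.52 against 388 ± 29.5 CPM (SD, n = 4 each). Their log2 fold changes of -6.10 and -5.94 are close in size to the -6.02 of Npc1l1, the importer. Falls of this size were not particular to sterol transport, since the 14 enterocyte markers had a median of -6.74 with TMM. The LXR alpha gene Nr1h3 fell by 3.93. Scarb1, the gene of a receptor for high-density lipoprotein, rose by 3.80, from 3.36 ± 1.35 to 47.0 ± 3.96 CPM, and the efflux pumps Abcg1 and Abca1 rose by 1.54 and 1.07.

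Of 7 lipoprotein receptors and adaptors, 4 rose and 3 fell with TMM, and 5 rose and 1 fell with library totals. These counts lie near the shares of all genes, 38.9% higher and 35.4% lower with TMM and 62% and 17.6% with library totals. Lrp8 rose by 3.64 and Vldlr by 1.91, while Lrp1 fell by 2.36. Sort1 and Lsr fell by 0.65 and 0.42 with TMM and turned to 0.21 and 0.45 with library totals; Lsr lost the call without tumor replicate 4 (edgeR adjusted p = 0.0528). Of 14 genes of intracellular sterol traffic and ester turnover, 5 rose and 7 fell with TMM, and 8 rose and 4 fell with library totals. Cav1, the caveolae protein gene, rose by 2.85, Stard5 by 1.34 and the ester hydrolase gene Nceh1 by 0.96, and Gramd1b, Gramd1c and Scp2 fell by 2.34, 2.04 and 1.93. Cav1 is abundant in endothelium and fibroblasts, whose markers rose for 6 of 6 and 8 of 8 genes, and the part of these cells was not tested.

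Of 6 tested oxysterol genes 3 rose and 2 fell, and 4 rose and 1 fell with library totals. Sult2b1, which sulfates cholesterol, fell by 4.42, from 420.3 ± 54.7 to 19.6 ± 2.62 CPM, and Cyp27a1 by 1.21 (-0.33 and not called with library totals). Cyp7b1 rose by 2.77, to only 1.34 ± 0.224 CPM, Cyp39a1 by 1.51 and Hsd3b7 by 1.20. A list of 16 genes held the isoprenoid branch, which leaves the pathway before squalene, and the mitochondrial thiolase gene Acat1. Of these, 3 rose and 8 fell with TMM, Acat1 among the falls, and 12 rose and 1 fell with library totals. With library totals 62% of all genes were higher, so that 12 of 16 is near the background. The prenyl transferase genes Pggt1b and Rabggtb and the protease gene Zmpste24 rose by 1.08, 0.83 and 0.35, while Pdss1, Fntb and Pdss2 fell by 1.20, 1.05 and 0.92; with library totals Fntb and Pdss2 stood at -0.18 and -0.053 and were not called. The 12 cell cycle genes all rose under either scaling, led by Bub1 at 2.74, Ccnb1 at 2.49 and Top2a at 2.33. All calls in these lists are from edgeR's quasi-likelihood test adjusted over all genes tested.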

How the data were processed

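Polyadenylated RNA of 4 tumor and 4 small intestine libraries was compared, grouped by the tissue label. The authors deposited whole-number read counts per gene and FPKM values per gene. The submitters' processing notes name GRCm38, HTSeq 0.6.0, Cufflinks 2.2.1, STAR and FastQC. The role of each tool, the annotation, the strand setting and the handling of shared reads: not given in the sources used here. Symbols and overlaps came from GENCODE on GRCm38, matched by identifier for 42462 of 43629 genes.

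Counts went into edgeR 4.0.16 under R 4.3.3 (glmQLFit, glmQLFTest, TMM, filterByExpr, tissue as the only term), with Benjamini-Hochberg adjustment over 17029 genes and a threshold of 0.05. Each SE is the fold change divided by the root of its F. For FPKM, limma 3.58.1 with a trend was run on log2(FPKM + 1) where the mean reached 1; this scale makes changes of low genes look smaller. Count ratios used a pseudocount of 0.5. Alternatives were other scalings, filters, DESeq2 1.42.0, a replicate block and each library left out. Both fits were tested on simulated data.

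The 28 members and the 20 other lists (170 of 171 symbols found) were chosen with earlier results of these data known. From each pathway list, up to 3 called genes with the largest rise and fall were named. Of the genes this rule names, 2 are not reported here. At this depth 3 counts equal 0.0355 to 0.0557 CPM, counting error only, scaled by library totals without the TMM factors. Counts of any pair of libraries within a group differed beyond sampling noise, with a chi-square of at least 38.9 for each degree of freedom.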

Additional observations from a re-analysis of the deposited data

Results flagged for a closer look

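Within its group of 4, a single library stood far from the other 3 for 3 members among 56 groups examined, a number near the 1 in 20 that chance gives. Hmgcs1 was at 319 CPM in tumor replicate 3, where the rest of its group lay at 265 to 272 CPM. Fdft1 was at 150.5 CPM in the same library, against 137 to 138 CPM. Stard4 was at 140.5 CPM in tumor replicate 4, against 123 to 126 CPM. None of these gaps comes near the difference from small intestine for Hmgcs1 or Stard4.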

How the results depend on the processing

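The scaling between tissues decided most calls on synthesis enzymes. With library totals, 9 members were higher and 7 lower, and log2 fold changes turned sign to 0.63 for Srebf2, 0.23 for Insig1, 0.33 for Mvd, 0.71 for Fdps, 0.28 for Fdft1, 0.39 for Lss, 0.13 for Cyp51, 0.66 for Tm7sf2, 0.28 for Nsdhl and 0.00799 for Hsd17b7, and to 0.21 for Sort1 and 0.45 for Lsr. The scaling itself moved the median of all genes from 0.07 to 0.93, and the cause was not tested further. Called lower in every one of 16 count fits were 7 members, and called higher 3. The number called higher was 5 without a low-count filter, with a mean of at least 1 CPM and with TMM taken without the 50 most abundant genes (in each, Acat2 and Idi1 passed too). With 1 library left out, 3 to 5 members were higher (5 without small intestine replicate 4) and 16 to 21 lower, FPKM gave 8 to 11 higher and 6 to 7 lower, and 12049 to 12917 of all genes were called. The Insig1 to Insig2 difference without tumor replicate 4 was 1.24. The log2 differences of the within-library ratios then ran from 1.14 to 1.55 for Insig1 to Insig2, 7.77 to 8.12 for Soat1 to Soat2, 6.47 to 6.94 for Npc1 to Npc1l1, 0.71 to 0.93 for Acat2 to Acat1 and -1.61 to -1.35 for Srebf2 to Srebf1. Libraries with the same replicate number did not deviate together over all genes tested (correlations of -0.159 to 0.0136). Samples of the same animal need not deviate together, so this cannot show whether the number marks a pairing. With the number as a replicate block, 4 members were higher and 18 lower by counts, and 9 and 6 by FPKM. In that count fit, 11893 of all genes were called.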

Other observations

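Markers of other cell types also differed between the tissues. Of all genes tested, 38.9% were higher and 35.4% lower with TMM, and 62% and 17.6% with library totals. Of 6 T cell markers 6 fell with TMM and 4 with library totals, with summed levels of 12.9 to 24.8 CPM in tumor and 49.0 to 196 CPM in small intestine. Of 6 B and plasma cell markers 4 fell and 2 did not pass, with sums of 182 to 860.2 and 176 to 1009 CPM. All 5 tested neutrophil markers rose, and 4 of 6 smooth muscle markers rose with TMM and 6 with library totals. Of 7 pan-epithelial markers 5 fell and 1, Krt18, rose with TMM, and 3 fell and 3 rose with library totals. All 14 enterocyte markers fell under either scaling.

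Markers of fat, liver and steroid-making cells were also read. Of 5 adipocyte markers 1 could be tested and did not pass, and their sum was 9.29 to 10.1 CPM in tumor and 0.693 to 30.0 CPM in small intestine. Of 3 tested hepatocyte markers Alb rose and Apoh fell. Alb reached 118 ± 43.7 CPM in tumor from 0.0174 CPM or less in each small intestine library. Cyp7a1, the rate-limiting enzyme gene of bile acid synthesis, had no count in any library. Scaled by library totals without the TMM factors, that allows up to 0.0557 CPM. Of 2 tested steroidogenic genes Cyp11a1, which cuts the side chain of cholesterol, rose and Star, the mitochondrial cholesterol carrier gene, fell by 0.88 with TMM and stood at -0.034 with library totals. Cyp11a1 was at 1.10, 1.70, 5.81 and 0.744 CPM in tumor replicates 1 to 4 and at 0.0868, 0.0177, 0.168 and 0.103 CPM in small intestine, so that its tumor level was highest in replicate 3. Krt18, Alb, Apoh, Cyp11a1 and Star were named after their values were seen.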
